A study of Homo sapiens with 2 samples.

Results

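Low-depth barcodes with a high mitochondrial share were examined in a droplet single-cell RNA-seq experiment on human cardiomyocytes grown from embryonic stem cells. A barcode tags the content of 1 droplet, and a UMI (unique molecular identifier) stands for 1 captured RNA molecule. Members had at least 500 detected genes, 1000 to 4000 gene UMIs and an MT share of 8% to 25%, where the MT share is the part of a barcode's UMIs that falls on the 13 mitochondrially encoded MT- genes. These barcodes were thus chosen by measured values (UMIs, genes and MT share), and the rule took 1360 of the 24038 deposited barcodes (5.66%). They were set against 14995 reference barcodes with at least 6000 UMIs and an MT share of at most 5%. Another pair of groups changes 1 side of the rule at a time. These were 943 deep, high-MT barcodes (at least 6000 UMIs, MT share 8% to 25%) and 675 shallow, low-MT barcodes (1000 to 4000 UMIs, MT share at most 5%).

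All groups came from 1 pool of H9 cells, an established human embryonic stem cell line, that carried the fluorescent calcium reporter gCaMP6f. The cells had been differentiated to cardiomyocytes for 15 days, frozen, thawed in medium with serum and the ROCK inhibitor Y-27632, stained with hashtag antibodies (antibodies that carry a sample tag) and pooled for 10x Genomics capture. A gene expression library and a hashtag library were made, and they share all 24038 barcodes. No label says what any of the 13 hashtags marks, so none is a condition or a replicate, and no test and no p-value is given. Levels are in CPM, here UMIs per 1000000 UMIs outside the MT- genes, summed over a group's barcodes, since the rule itself sets the MT share. The 95% intervals in brackets are exact and reflect counting error alone.

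Messenger RNAs are exported to the cytosol for translation, whereas some long noncoding RNAs stay in the nucleus. MALAT1 is held in nuclear speckles, which store splicing factors, and NEAT1 builds the paraspeckle, another nuclear body. Transcripts of the mitochondrial genome stay inside mitochondria, which are abundant in cardiac muscle. Barcodes with few UMIs and a high MT share are commonly removed from single-cell data during quality control. What state of a cell or droplet gave rise to them here was not tested.

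The readouts that chose the members are given as a description. Members had a median of 1923 gene UMIs, against 14155 in reference barcodes, and a median of 1018 detected genes, against 3772. Their median MT share was 15.8% (quartiles 11.9% and 19.8%), against 2.10% (1.23% and 3.15%) in reference barcodes. Members had 559 to 2089 genes, so the limit of 500 genes removed 0 barcodes that met the other limits. Of the 3501 barcodes with 1000 to 4000 UMIs and at least 500 genes, members made up 38.8%, while 335 had an MT share between 5% and 8% and 1131 were above 25%. The limits cut through a continuous cloud of barcodes. The 95 barcodes just inside the lower MT limit (8% to 9%) had a summed MALAT1 level of 118098 CPM, and the 116 just outside it (7% to 8%) had 121465. At the upper limit the MALAT1 level was 128047 in the 125 barcodes inside (23% to 25%) and 148295 in the 107 outside (25% to 27%). The 100 barcodes of 3500 to 4000 UMIs had 119456, and the 89 with the same MT share and 4000 to 4500 UMIs had 109098.

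**Figure D1:**
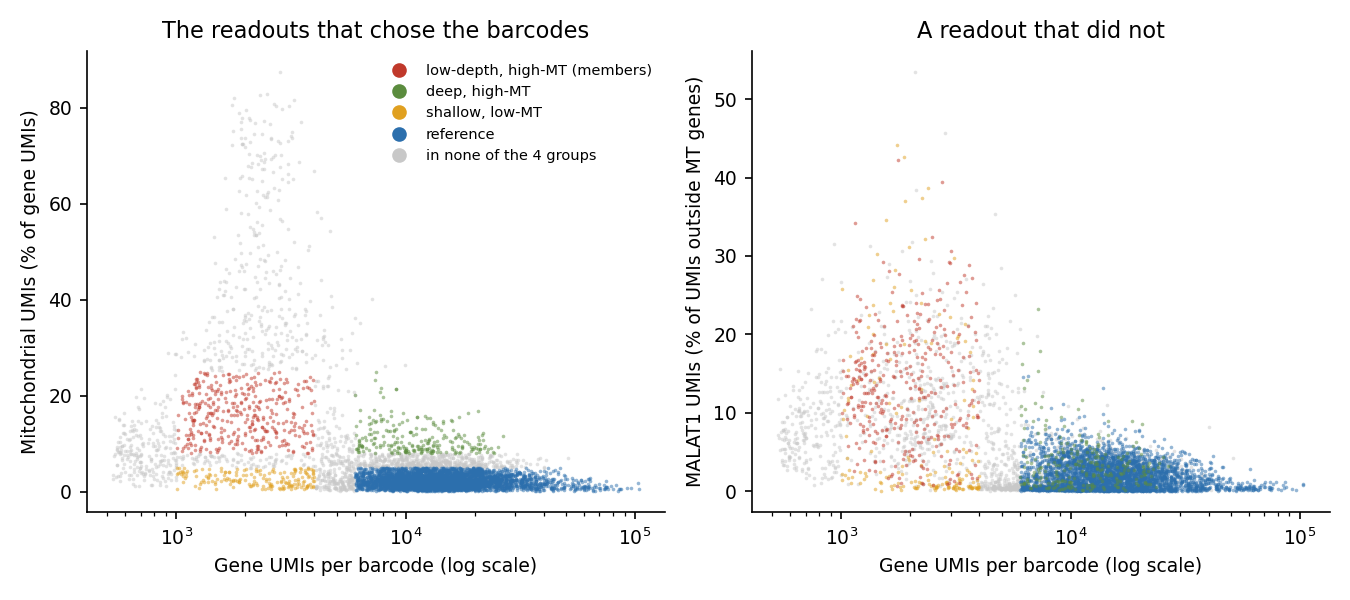
A random draw of 6000 barcodes, by gene UMIs (log scale) against the MT share in percent (left) and against MALAT1 as a percent of UMIs outside the MT- genes (right), each point 1 barcode and each colour 1 group. Members lie between 1000 and 4000 UMIs and 8% and 25% MT by the rule, and their MALAT1 share, which the rule did not use, had a median of 12.9%, against 1.46% in reference barcodes.

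Nuclear RNAs stood far higher in members than in reference barcodes. MALAT1 (GRCh38, chr11:65497688-65506516, plus strand) was at 132964 CPM in members and 17749.6 in reference barcodes, a ratio of 7.49 (7.46 to 7.52). NEAT1, its neighbour on the same strand (chr11:65422774-65445540), was at 1308 CPM in members, against 179 CPM in reference barcodes, a ratio of 7.30 (7.04 to 7.57). These are long noncoding RNAs with no protein product. The imprinted antisense RNA KCNQ1OT1 had 1274 CPM in members and 169 in reference barcodes (7.53, 7.26 to 7.81). TUG1 had 265 CPM in members and 76.1 CPM in reference barcodes (3.48, 3.21 to 3.77), and LINC-PINT had 11.3 CPM in members, against 2.48 CPM in reference barcodes (4.56, 2.98 to 6.70). All 5 nuclear RNAs that could be measured were thus at least 1.5-fold higher in members, while MIAT and PVT1 were under the minimum level and MEG3 had 0 counts in members. LINC-PINT reached the minimum level of 10 CPM only through members, so it could not have counted as lower. MALAT1, NEAT1, KCNQ1OT1 and TUG1 were above that level in reference barcodes as well.

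The count of 5 nuclear RNAs has to be read against the background, because most genes were higher on this scale. Of 10690 measured genes, taken as those that reached 10 CPM and 10 counts on the higher side, 53.8% were at least 1.5-fold higher in members and 18.7% at least 1.5-fold lower. The median ratio was 1.64, or 0.72 on the log2 scale. With TMM scaling, which sets a trimmed mean of gene ratios to 1, 14.8% were higher and 51.3% lower, and with median-of-ratios scaling 15.9% and 50.1%. Centred on the median gene, 27.6% were higher and 38.4% lower. The scale therefore decides which way the typical gene goes, and ratios below 2.16 turn to the lower side with TMM, while ratios above 2.16 and those under 1 keep their side. The minimum level also matters, since a gene under 10 CPM in reference barcodes was measured only if it was higher in members. With the minimum set on reference barcodes alone and no other scaling, 43.1% of 8375 genes were higher and 23.9% lower. The nuclear RNAs, LINC-PINT included, kept 5 of 5 higher under each of the 3 scalings, with a median ratio of 3.38 with TMM.

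The share of MALAT1 varied widely among members. A barcode's MALAT1 share of UMIs outside the MT- genes had quartiles of 7.84% and 17.7% in members and 0.416% and 2.94% in reference barcodes, so the central ranges did not overlap. Deep, high-MT barcodes had a median of 2.78% (1.06% to 4.84%). Shallow, low-MT barcodes had a median of 2.40% and quartiles of 0.742% and 12.6%, a range that overlaps those of both reference barcodes and members.

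Genes for splicing factors and speckle proteins were also high. Of 23 measured, 21 were at least 1.5-fold higher in members and 0 were lower, with a median ratio of 2.66. With TMM 8 were higher and 2 lower, at a median of 1.23. Over all measured genes 53.8% were higher and 18.7% lower, and 14.8% and 51.3% with TMM. The cyclophilin-related NKTR had 447 CPM in members and 75.3 in reference barcodes (5.94, 5.58 to 6.32). The RNA helicase gene DDX17 had 1209 CPM in members and 221 CPM in reference barcodes (5.47, 5.27 to 5.68), and the cyclin L2 gene CCNL2 had 182 CPM in members, against 34.0 CPM in reference barcodes (5.36, 4.86 to 5.90). LUC7L3, a splicing factor gene, had 857 CPM in members and 170 CPM in reference barcodes (5.05, 4.83 to 5.28). Noncoding RNA as such did not go one way, since the snoRNA host genes, whose spliced transcripts are exported and short-lived, were 1 higher and 7 lower of 11. GAS5 had 245 CPM in members and 790 in reference barcodes (0.310, 0.285 to 0.336), and SNHG8 had 56.0 CPM in members, against 159 CPM in reference barcodes (0.351, 0.294 to 0.416).

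Sarcomere genes, the contractile apparatus of muscle, split into high and low genes while their sum changed little on this scale. The 30 listed genes together had 59056 CPM in members and 65651 in reference barcodes, a ratio of 0.90 (0.89 to 0.90), which falls to 0.42 with TMM. Of the 28 measured genes 10 were at least 1.5-fold higher in members and 13 lower. With TMM these counts were 5 and 17. Over all measured genes 53.8% were higher and 18.7% lower, and 14.8% and 51.3% with TMM.

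In the thick filament, the giant spring protein gene TTN (chr2:178525989-178830802, minus strand) had 14957 CPM in members and 4247 in reference barcodes (3.52, 3.48 to 3.56). TTN overlaps annotated antisense genes. Its share of the sarcomere sum was thus much larger in members. The myosin-binding protein gene MYBPC3 had 1153 CPM in members and 290 CPM in reference barcodes (3.97, 3.82 to 4.12), and the fetal and atrial heavy chain gene MYH6 had 7347 CPM in members, against 3007 CPM in reference barcodes (2.44, 2.41 to 2.48). The other cardiac heavy chain gene, MYH7, had 774 CPM in members and 367 CPM in reference barcodes (2.11, 2.01 to 2.21), a ratio that lies just under 1 with TMM. The light chain genes went the other way. MYL3 had 1063 CPM in members and 3052 in reference barcodes (0.35, 0.33 to 0.36), and MYL4 had 2029 CPM in members, against 6064 CPM in reference barcodes (0.33, 0.33 to 0.34). MYL7, the atrial light chain, had 8336 CPM in members and 10098 CPM in reference barcodes (0.83, 0.81 to 0.84) and stayed within 1.5-fold. MYL2 rests on 4 UMIs in members, at 1.67 CPM in members, against 17.0 CPM in reference barcodes (0.098, 0.027 to 0.252).

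In the thin filament, 1 of 10 genes was higher and 7 were lower in members. Those 7 included the actin gene ACTC1, with 3567 CPM in members and 7381 in reference barcodes (0.48, 0.47 to 0.49), and the tropomyosin gene TPM1, with 5725 CPM in members and 11848 CPM in reference barcodes (0.48, 0.48 to 0.49). The troponin genes TNNC1 and TNNI1 had ratios of 0.35 (0.34 to 0.36) and 0.34 (0.33 to 0.35), and TNNI3 had 0.60 (0.50 to 0.71). ACTA1 and the filament-capping gene TMOD1 had ratios of 0.52 and 0.64. The long scaffold gene NEBL was the exception, with 1408 CPM in members, against 430 CPM in reference barcodes (3.27, 3.16 to 3.39). TNNT2, the troponin T gene often used to score cardiomyocytes, had 5664 CPM in members and 6762 in reference barcodes (0.84, 0.82 to 0.85), and LMOD2 also had 0.84 (0.66 to 1.06).

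Genes of the Z-disc and M-band, which anchor the filaments, were 5 higher and 3 lower of 10 measured. Both counts lie near the shares over all measured genes, 53.8% higher and 18.7% lower. MYOM2 had 22.1 CPM in members and 5.98 CPM in reference barcodes (3.70, 2.76 to 4.87), LDB3 had 949 CPM in members, against 404 CPM in reference barcodes (2.35, 2.25 to 2.45), and MYOM1 had 514 CPM in members and 228 CPM in reference barcodes (2.26, 2.14 to 2.39). ACTN2 had 656 CPM in members, against 401 CPM in reference barcodes (1.64, 1.56 to 1.72), which turns to the lower side with TMM. The small proteins' genes were lower, with ratios of 0.54 for TCAP, 0.39 for MYOZ2 and 0.39 for CSRP3.

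The split followed the length of the annotated transcript. Among sarcomere genes whose longest GENCODE 29 transcript is at least 5 kb, 9 of 10 were higher in members, 1 was lower, and the median ratio was 2.40. Among the 18 genes under 5 kb, 1 was higher and 12 were lower, with a median of 0.53. The exceptions were MYBPC3, higher with 4226 bases, and TNNI1, lower with 6142 bases, although the longest annotated transcript need not be the one expressed. Spearman's rho between length and ratio was 0.70 over the 28 sarcomere genes and 0.74 over 20 calcium handling and ion channel genes. Over all 10084 measured protein-coding genes it was 0.65. These are correlations across genes in 1 library, and genes are not independent replicates. Over the 2743 protein-coding genes with at least 50 CPM in reference barcodes, which sets aside genes near the minimum level, rho was 0.72.

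By length bin, 91.6% of the 249 protein-coding genes under 1 kb were at least 1.5-fold lower in members and 1.61% higher, with a median ratio of 0.40. The median ratio was 0.55 from 1 to 2 kb, 1.00 from 2 to 3 kb, 1.67 from 3 to 5 kb, 2.33 from 5 to 8 kb and 2.78 from 8 to 12 kb. Of the 254 genes of 12 kb or more, 92.9% were higher and 0.394% lower, at a median of 3.23. The medians thus climbed with each longer bin. Over genes with at least 50 CPM in reference barcodes they climbed too, but from lower values. They were 0.45 from 1 to 2 kb, 0.64 from 2 to 3 kb, 0.95 from 3 to 5 kb and 1.61 from 5 to 8 kb. From 3 to 5 kb, 20.7% of these genes were higher and 28.1% lower, against 56.8% and 8.34% of all measured ones. The side taken by genes of that length thus depends on the minimum level. By the span of the gene on the genome, the median ratio was 0.59 under 5 kb and 2.42 from 200 kb up. The 575 measured long noncoding RNAs had a median ratio of 3.88, with 79.3% higher and 7.83% lower. These values are partly set by the minimum level. A long noncoding RNA under it in reference barcodes was measured only if it was higher in members. With deep, high-MT barcodes in place of members, 277 were measured. The values therefore cannot show how far long noncoding RNAs as a set were higher in members. TMM multiplies every ratio by 0.463, which leaves the order of the bins as it is.

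**Figure D2:**
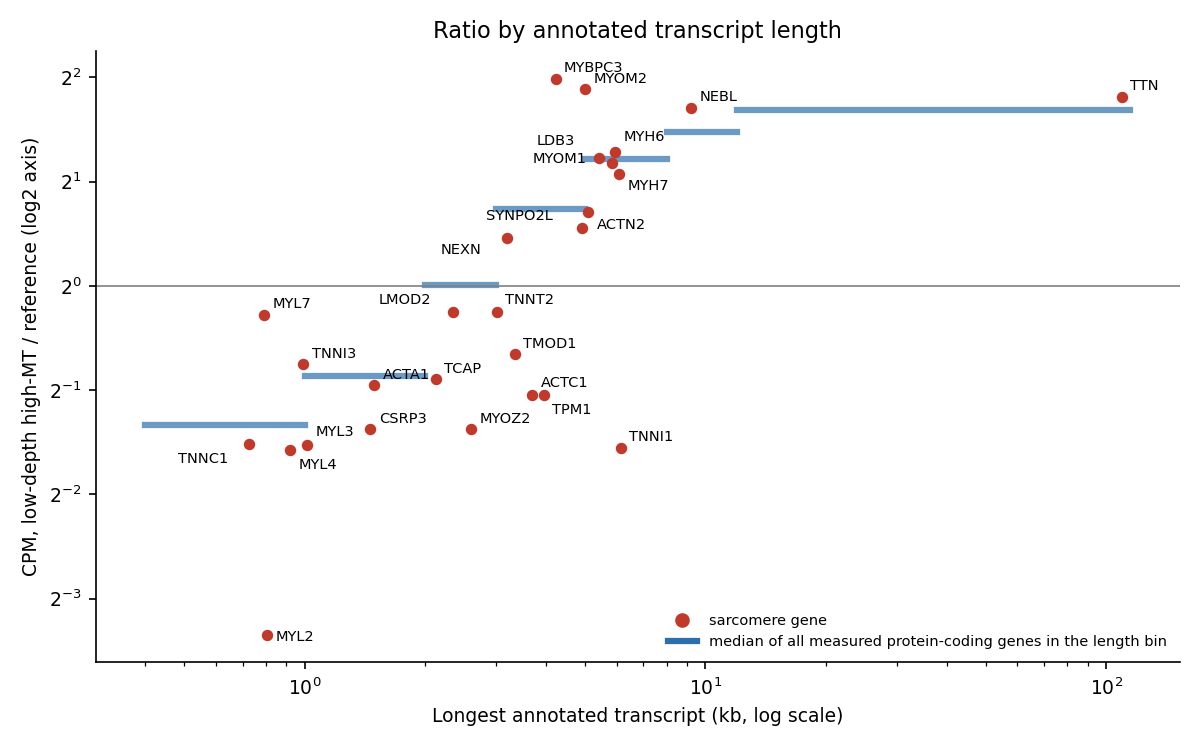
Ratio of the level in low-depth, high-MT barcodes to that in reference barcodes (log2 axis) against the longest annotated transcript in kb (log scale); points are 27 of the 28 measured sarcomere genes and bars are the medians of all measured protein-coding genes by length bin. Bar medians run from 0.40 under 1 kb to 3.23 at 12 kb and more. Over genes with at least 50 CPM in reference barcodes, not drawn, they run from 0.38 to 2.66. The sarcomere genes of at least 5 kb other than TNNI1 lie above 1. With TMM scaling every value is multiplied by 0.463, which puts MYH7 and ACTN2 below 1.

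Calcium handling and ion channel genes set the beat and its calcium transient. Of 11 calcium handling genes measured, 8 were higher in members and 2 lower, where 53.8% of all measured genes were higher. Their median ratio was 2.16, against 1.64 over all genes, while with TMM 1 was higher and 3 lower at a median of 1.00. The L-type channel gene CACNA1C had 189 CPM in members and 35.9 in reference barcodes (5.28, 4.79 to 5.80). The ryanodine receptor gene RYR2 had 595 CPM in members and 187 CPM in reference barcodes (3.19, 3.02 to 3.36), and the exchanger gene SLC8A1 had 1142 CPM in members, against 358 CPM in reference barcodes (3.19, 3.07 to 3.32). JPH2, which holds the junction of the membrane systems, had 97.4 CPM in members and 34.3 CPM in reference barcodes (2.84, 2.48 to 3.24). Phospholamban (PLN), a small regulator of calcium uptake, was low, with 441 CPM in members and 989 in reference barcodes (0.45, 0.42 to 0.47).

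Of 9 ion channel genes measured, 8 were higher in members and 0 lower, at a median of 2.15, and with TMM 3 were higher and 1 lower at a median of 1.00. Over all measured genes 53.8% were higher and 18.7% lower, and 14.8% and 51.3% with TMM. CACNA1D had 142 CPM in members and 22.8 in reference barcodes (6.22, 5.56 to 6.95), and CACNA1G had 73.5 CPM in members and 16.6 CPM in reference barcodes (4.44, 3.796 to 5.16). TRPM4 had 71.9 CPM in members, against 19.1 CPM in reference barcodes (3.77, 3.22 to 4.39). The pacemaker channel gene HCN4 had 138 CPM in members and 54.3 CPM in reference barcodes (2.55, 2.28 to 2.84). HCN4 was at 137 CPM in shallow, low-MT barcodes, close to its level in members.

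The natriuretic peptide genes, which encode small secreted hormones, were lower in members. NPPA had 187 CPM in members and 369 in reference barcodes (0.51, 0.46 to 0.56), and NPPB had 288 CPM in members, against 598 CPM in reference barcodes (0.48, 0.45 to 0.52). Of 12 cardiac transcription factor genes, 3 were higher and 2 lower, where 53.8% of all measured genes were higher and 18.7% lower. With TMM 0 of the 12 were higher and 8 lower, beside 14.8% and 51.3% of all genes. IRX4 had a ratio of 2.35 (2.15 to 2.55) and MEF2A of 2.01 (1.87 to 2.16), whereas NKX2-5 had 0.59 (0.55 to 0.63) and HAND1 had 0.48 (0.41 to 0.56).

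The lowest list medians belonged to genes of the translation machinery and the nuclear-coded respiratory chain and to other abundant cytosolic transcripts. All 76 ribosomal protein genes were measured, 75 were at least 1.5-fold lower in members and 0 higher, at a median ratio of 0.31. Their sum was 79005 CPM in members and 251800 in reference barcodes (0.31, 0.31 to 0.32). Among the lowest ratios was that of RPL7, with 615 CPM in members, against 2548 CPM in reference barcodes (0.24, 0.23 to 0.25). Processed pseudogenes share sequence with these genes, so single values may be split between copies.

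The respiratory chain is built from proteins of both genomes. The rule set the level of the MT- genes, so only the nuclear-coded genes are read as a result here. Of 76 measured genes, 70 were lower in members and 0 higher, at a median ratio of 0.38, and their sum was 16188 CPM in members and 42898 in reference barcodes (0.38, 0.37 to 0.38). The ATP synthase gene ATP5MC3 had 425 CPM in members and 1649.96 CPM in reference barcodes (0.26, 0.24 to 0.27), and the complex I gene NDUFA4 had 507 CPM in members, against 1902 CPM in reference barcodes (0.27, 0.25 to 0.28). Genes for the upkeep and expression of the mitochondrial genome were 6 higher and 2 lower of 10, where 53.8% of all measured genes were higher. With TMM 0 of the 10 were higher and 4 lower, where 51.3% of all genes were lower. The RNA polymerase gene POLRMT had 38.9 CPM in members and 18.1 CPM in reference barcodes (2.15, 1.73 to 2.64), and SLIRP, a small RNA-binding partner, had 110 CPM in members, against 225 CPM in reference barcodes (0.49, 0.43 to 0.55).

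Other abundant cytosolic transcripts were low too. Of 18 such genes, 14 were lower in members and 0 higher, at a median of 0.38, with TPT1 at 1134 CPM in members and 4136 in reference barcodes (0.27, 0.26 to 0.28). Of 20 glycolysis genes, 10 were lower and 3 higher, where 18.7% of all measured genes were lower and 53.8% higher. GAPDH had 1876 CPM in members and 6099.6 CPM in reference barcodes (0.31, 0.30 to 0.32) and LDHB 439 CPM in members, against 1454 CPM in reference barcodes (0.30, 0.28 to 0.32), while HK2 had 86.5 CPM in members and 39.5 CPM in reference barcodes (2.19, 1.90 to 2.51). Of 19 genes for secreted or endoplasmic reticulum proteins, 9 were higher and 3 lower, where 53.8% of all measured genes were higher. With TMM 1 of the 19 was higher and 10 were lower, where 51.3% of all genes were lower. The basement membrane gene HSPG2 had a ratio of 3.74 (3.41 to 4.10) and the chaperone gene CALR of 0.62 (0.57 to 0.68).

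Stress lists did not move as blocks. Of 13 heat shock genes 8 were lower in members and 1 higher, with CRYAB at 89.0 CPM in members and 282 in reference barcodes (0.32, 0.28 to 0.36) and the inducible HSPA1B at 23.8 CPM in members, against 13.8 CPM in reference barcodes (1.73, 1.31 to 2.25). Of 12 immediate early genes, which are transcribed within minutes of a stimulus, 5 were higher and 0 lower. Over all measured genes 53.8% were higher and 18.7% lower. With TMM 2 of the 12 were higher and 6 lower, beside 14.8% and 51.3% of all genes. EGR1 had 105 CPM in members and 30.3 CPM in reference barcodes (3.47, 3.05 to 3.94), FOSB had 180 CPM in members, against 52.4 CPM in reference barcodes (3.43, 3.11 to 3.78), and FOS had 259 CPM in members and 129 CPM in reference barcodes (2.00, 1.84 to 2.17). Of 7 measured genes of the integrated and endoplasmic reticulum stress responses, 2 were higher and 1 lower, against 0 and 4 with TMM. The lower counts lie near the shares of all genes, 18.7% and 51.3% with TMM.

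Of 12 apoptosis and p53 genes, 5 were higher and 4 lower in members, where 53.8% of all measured genes were higher and 18.7% lower. With TMM 1 of the 12 was higher and 7 were lower, beside 14.8% and 51.3% of all genes. The p53 antagonist gene MDM2 had 95.7 CPM in members and 29.3 in reference barcodes (3.27, 2.85 to 3.73), and the pro-apoptotic BCL2L11 had 25.9 CPM in members, against 8.83 CPM in reference barcodes (2.94, 2.24 to 3.78). The pro-apoptotic BAX had 82.3 CPM in members and 137 CPM in reference barcodes (0.60, 0.52 to 0.69), and the cell cycle inhibitor gene CDKN1A had 17.6 CPM in members, against 32.0 CPM in reference barcodes (0.55, 0.40 to 0.74). Of 11 antioxidant genes 8 were lower and 1 higher, with SOD1 at 125 CPM in members and 383 CPM in reference barcodes (0.33, 0.29 to 0.37).

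Cell cycle genes split as well, where 53.8% of all measured genes were higher and 18.7% lower. Of 13 S phase genes 2 were higher and 3 lower in members, with HELLS at 2.92 (2.57 to 3.31) and TYMS at 0.32 (0.27 to 0.39). Of 18 G2M genes 4 were higher and 7 lower. The higher ones were ASPM, CENPE, MKI67 and CENPF, which encode large proteins, with ratios of 2.04 to 2.37. With TMM 0 of the S phase and 0 of the G2M genes were higher. BIRC5, UBE2C, CCNB2 and CCNB1 had ratios of 0.41 to 0.44.

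**Figure D3:**
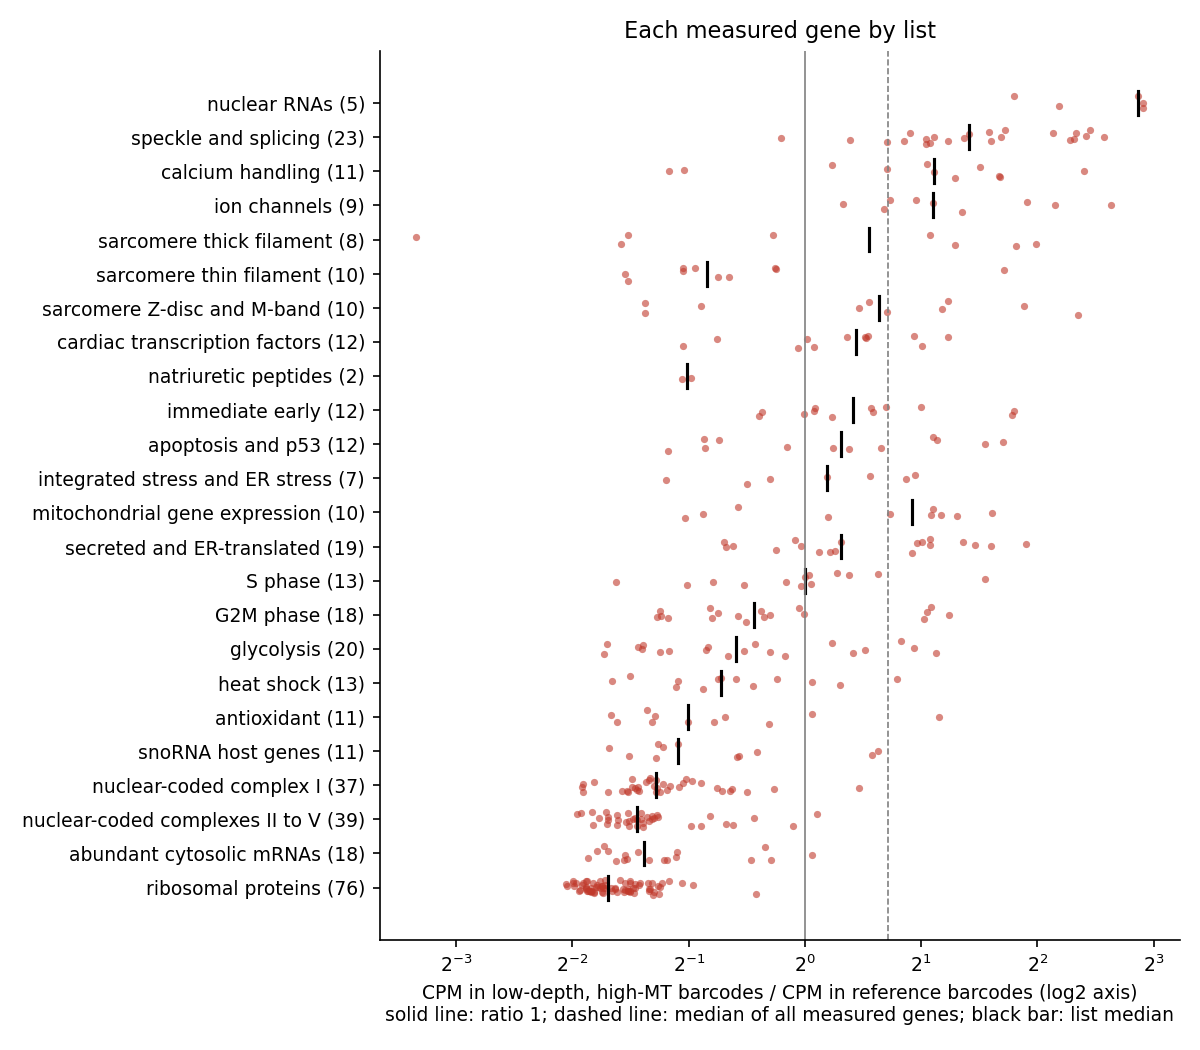
Ratio of the level in low-depth, high-MT barcodes to that in reference barcodes (log2 axis) for each measured gene, by list, with the number of genes measured in brackets; black bars are list medians, the dashed line is the median of all measured genes. List medians run from 7.30 for nuclear RNAs to 0.31 for ribosomal proteins, and the lists with medians between 1 and 2.16 fall below 1 with TMM scaling.

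The mitochondrial transcripts themselves, whose amount the rule set, were examined for their make-up. All 13 genes together took 15.9% of gene UMIs in members and 2.15% in reference barcodes, and single genes had ratios of 6.91 (MT-CO2) to 9.85 (MT-ND6) on the scale of all gene UMIs. Within the MT- UMIs the make-up was close. Complex IV genes gave 55.0% in members and 55.3% in reference barcodes, and complex I genes 23.9% in members and 24.4% in reference barcodes. MT-CYB of complex III gave 12.8% in members and 12.4% in reference barcodes, and the ATP synthase genes gave 8.38% in members, against 7.87% in reference barcodes. MT-CO1 gave 22.2% of MT- UMIs in members and 21.5% in reference barcodes, and MT-CO2 gave 20.57% in members, against 22.02% in reference barcodes. MT-ND6, the only one of these genes on the light strand, gave 0.190% of MT- UMIs in members and 0.143% in reference barcodes, a ratio of 1.33 (1.24 to 1.43). The shares of the 12 others differed by at most 1.15-fold. The larger MT-ND6 share was no trait of members alone, since it was 0.229% in shallow, low-MT barcodes and 0.209% in deep, high-MT barcodes. MT-ATP8 and MT-ATP6 overlap on 1 transcript, as do MT-ND4L and MT-ND4, so their split is uncertain.

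Depth and MT share were then separated as far as the data allow. Among barcodes of 1000 to 4000 UMIs, the MALAT1 level was 35619 CPM at an MT share under 2%, 83871 from 2% to 5% and 115835 from 5% to 8%. Within the members' range it was 121458 from 8% to 12%, 138697 from 12% to 16%, 139810 from 16% to 20% and 132666 from 20% to 25%. Most of the difference thus lay below the members' lower limit. Over the 4 bins inside the rule the ribosomal protein sum was 94100, 78444, 71205 and 69403 CPM, against 232406 under 2%. TTN was at 13419, 14928, 15768 and 16024 CPM, against 3414 under 2%. The sarcomere genes without TTN were at 48203, 41688, 41794 and 44511, against 71913.

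**Figure D4:**
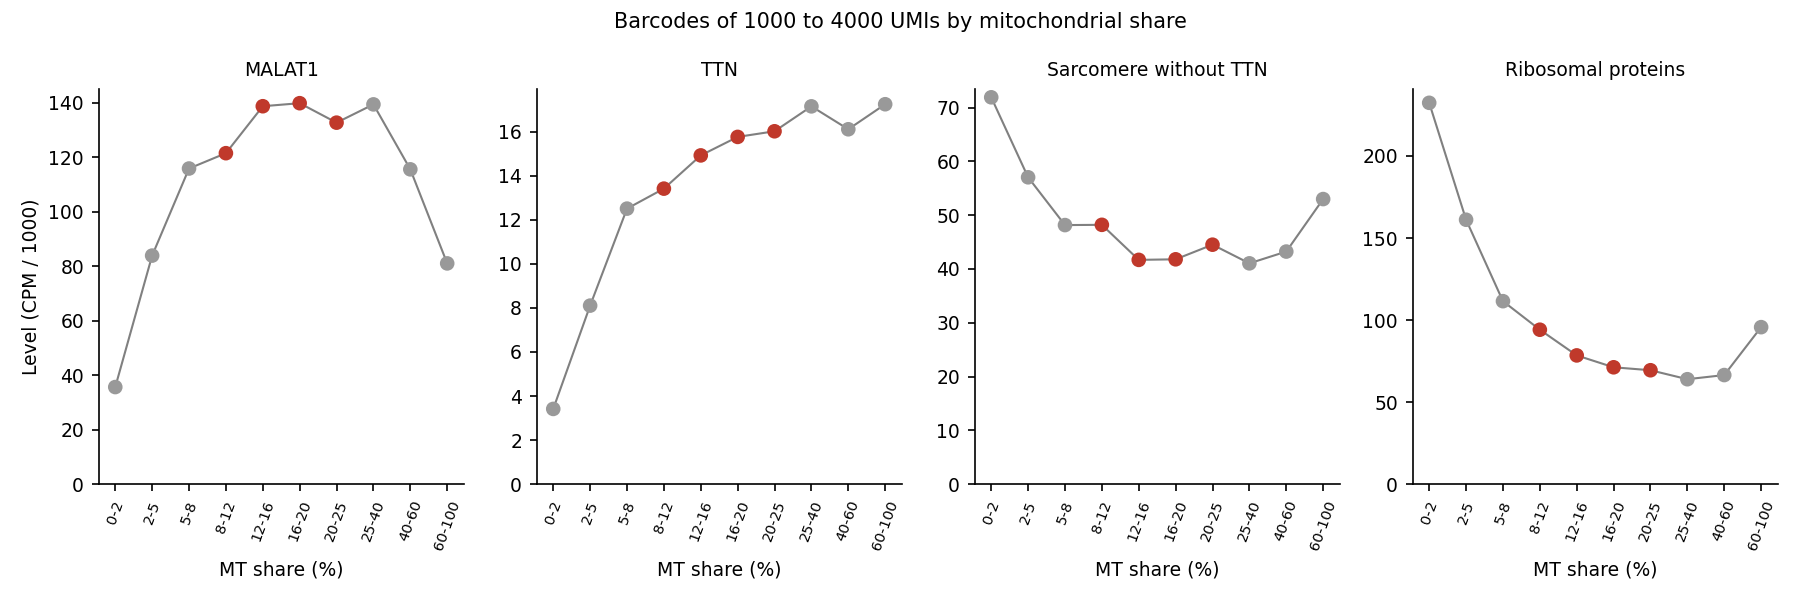
Levels in CPM divided by 1000, for barcodes of 1000 to 4000 UMIs binned by MT share in percent (178 to 614 barcodes a bin); red points are the bins inside the rule. MALAT1 and TTN are low and ribosomal proteins high in the bin under 2%, and the 4 red points vary less than the bins to their left.

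Within members, MALAT1 and ribosomal protein levels depended little on UMIs. MALAT1 was at 122761 CPM in the 420 members of 1000 to 1500 UMIs, 136724 in the 296 of 1500 to 2000, 140527 in the 408 of 2000 to 3000 and 127973 in the 236 of 3000 to 4000. The ribosomal protein sum was between 71642 and 83976 CPM in these 4 bins. TTN was higher in deeper bins, at 11998, 14676, 15770 and 16037 CPM. The endoderm marker sum was at 873 CPM in the bin of fewest UMIs and 128 CPM in that of most.

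Members also differed from shallow, low-MT barcodes. In that comparison, where 42.6% of 10725 measured genes were higher and 15.3% lower, all 5 nuclear RNAs were higher in members with a median ratio of 2.34, and 75 of 76 ribosomal protein genes were lower at 0.41. NPPA and NPPB were lower against these barcodes as well, which had 693 CPM of NPPA and 987 CPM of NPPB. The cell cycle sums changed their side of 1. Of 18 G2M genes 6 were higher and 0 lower in members, with a summed ratio of 1.32, against 0.88 over reference barcodes. The S phase sum had a ratio of 1.10, against 0.88 over reference barcodes. Both sums lay below the median ratio of all measured genes in each comparison, which was 1.35 here and 1.64 over reference barcodes. The mixed groups lay between members and reference barcodes for nuclear RNAs. Deep, high-MT barcodes had a summed ratio to reference barcodes of 1.85 (1.85 to 1.86) for nuclear RNAs and 0.81 (0.81 to 0.82) for ribosomal proteins. Shallow, low-MT barcodes had 3.58 (3.55 to 3.60) and 0.76 (0.75 to 0.76), with 26.1% of all measured genes higher than in reference barcodes and 5.17% lower. In deep, high-MT barcodes 16.2% of 9089 measured genes were higher than in reference barcodes and 1.33% lower, and rho between transcript length and ratio was 0.71 over 8800 protein-coding genes. TTN had 8689 CPM there and 6164 in shallow, low-MT barcodes.

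Which lineages did the members come from? Reference barcodes were clustered and the clusters named from marker genes, and each barcode was then given to the best matching cluster by likelihood, with the MT- genes, the nuclear RNAs and all marker genes left out of the match. Of the members 1130 (83.1%, 81.0% to 85.0%) matched cardiomyocyte-like clusters, against 83.6% (83.0% to 84.2%) of reference barcodes. Stromal-like clusters took 150 members (11.03%, 9.41% to 12.8%), against 6.26% (5.88% to 6.66%) of reference barcodes. Epithelial-like took 58 (4.26%, 3.25% to 5.48%), against 6.22%, endoderm-like 14 (1.03%), against 1.91%, epicardial-like 7 (0.515%), against 1.70%, and endothelial-like 1, against 49 reference barcodes. The cardiomyocyte-like share was thus about the same on each side, and by this match the stromal-like share was larger among members. It was no trait of members alone, since it was 10.7% (8.44% to 13.2%) in shallow, low-MT barcodes, while it was 4.77% (3.50% to 6.33%) in deep, high-MT barcodes.

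The match has limits at this depth. Of 7478 reference barcodes held out and thinned to the members' depth, 99.7% of cardiomyocyte-like and 66.0% of stromal-like ones were recovered. Stromal-like barcodes were 8.55% of these by clustering and 6.26% after thinning and matching. The expression shift described above can also move a match. When barcodes were given to the class with the highest summed marker count, 99.0% of members and 93.6% of reference barcodes were cardiomyocyte-like. Stromal-like were then 0.662% (0.303% to 1.25%) of members and 2.72% (2.47% to 2.99%) of reference barcodes. Cardiomyocyte markers exceed stromal ones even in stromal-like barcodes, at 15984 against 3640 CPM in members and 14083 against 2284 in reference barcodes. This assignment therefore favours the cardiomyocyte-like class, and it was not checked on thinned barcodes. It cannot decide which side had the larger stromal-like share. The larger share among members thus rests on the profile match and its limits. Clustering at resolution 1.0 gave a cardiomyocyte-like share of 82.6% in members and 83.7% in reference barcodes.

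The marker genes took no part in the match, but the same lists had named the clusters. Their levels in reference barcodes are thus not independent of the class names. The 8 endoderm markers, which include the serum protein genes AFP and APOA1, summed to 19549.8 CPM in the 14 endoderm-like members and 21465 in endoderm-like reference barcodes, and to 164 in cardiomyocyte-like members and 97.4 in cardiomyocyte-like reference barcodes. The epithelial markers summed to 1744 CPM in epithelial-like members and 1852 in epithelial-like reference barcodes. Among cardiomyocyte-like barcodes they summed to 172 CPM in members and 308 in reference barcodes. The epithelial-like class also held stromal markers, at 1673 CPM in members and 1178 in reference barcodes. Stromal markers such as COL1A1 and COL3A1 summed to 3640 CPM in stromal-like members and 2284 in stromal-like reference barcodes. Among cardiomyocyte-like barcodes they summed to 146 CPM in members and 64.1 in reference barcodes, so the sum stood higher in members in both classes. Single markers went both ways. Over all barcodes COL1A1 had a ratio of 2.75 and COL3A1 of 2.56, whereas DCN had 0.55 (0.32 to 0.90) and LUM had 0.63 (0.44 to 0.88). The 12 cardiomyocyte markers summed to 51161 CPM in cardiomyocyte-like members and 46881 in cardiomyocyte-like reference barcodes. They also reached 15984 CPM in stromal-like members and 14083 in stromal-like reference barcodes. In epithelial-like barcodes they were at 9581 CPM in members and 4859.8 in reference barcodes. The source of that RNA was not tested.

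The MALAT1 and ribosomal protein differences held within each class of at least 7 members. MALAT1 was at 140574 CPM in cardiomyocyte-like members and 16885 in cardiomyocyte-like reference barcodes (8.33, 8.29 to 8.36). The MALAT1 ratio was 3.43 (3.38 to 3.48) in stromal-like, 3.92 (3.83 to 4.00) in epithelial-like, 4.85 (4.63 to 5.07) in endoderm-like and 6.45 (6.20 to 6.69) in epicardial-like barcodes. These intervals leave out the spread between barcodes, and the endoderm-like and epicardial-like values rest on 14 and 7 members. Whether the size of the ratio differs between classes was not tested. Ribosomal protein sums had ratios of 0.29 in cardiomyocyte-like, 0.45 in stromal-like, 0.44 in epithelial-like, 0.52 in endoderm-like and 0.46 in epicardial-like barcodes. The sarcomere sum did not keep its side. Its ratio was 0.89 (0.89 to 0.90) in cardiomyocyte-like, 1.01 (0.98 to 1.04) in stromal-like, 1.67 (1.60 to 1.75) in epithelial-like, 1.22 (1.10 to 1.35) in endoderm-like and 1.17 (1.05 to 1.31) in epicardial-like barcodes. Among cardiomyocyte-like barcodes alone, 53.6% of 10353 measured genes were higher in members and 19.7% lower, nearly as over all barcodes.

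Members fell mostly on 2 of the 12 clusters. Cluster 3 took 788 members (57.9%, 55.3% to 60.6%), against 12.1% of reference barcodes, and cluster 6 took 306 (22.5%, 20.3% to 24.8%), against 9.98%. Shallow, low-MT barcodes had 39.7% in cluster 3 and 12.4% in cluster 6, and deep, high-MT barcodes had 25.7% and 23.6%. Of the held-out, thinned reference barcodes given to clusters 3 and 6, 68.2% and 67.7% were correct. Among reference cardiomyocyte-like clusters, clusters 3 and 6 had the highest MALAT1 levels, 29803 and 26481 CPM, and the lowest ribosomal protein sums, 185754 and 195357. Ribosomal protein genes took part in the match, so the low ribosomal sums of these clusters are not independent of it. 3 genes that lead these clusters were lower in the members matched to them. The atrial hormone gene NPPA had 244 CPM in members matched to cluster 3 and 2205 in its reference barcodes, and the atrial regulator NR2F2 had 97.2 CPM in those members and 227 CPM in those reference barcodes. The ventricular regulator HEY2 had 165 CPM in these members and 33.6 in the reference barcodes of cluster 3. In cluster 6, the leading gene IRX1 had 64.9 CPM in members, against 136 CPM in reference barcodes. The match to a cluster is therefore not read as a chamber identity.

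Within single hashtags the main differences were present in every case. Barcodes with at least 20 hashtag UMIs, 70% or more of them from the same hashtag, were assigned to it, which placed 668 members (49.1%) and 48.8% of reference barcodes. Members made up 4.40% (Hashtag3) to 8.64% (Hashtag1) of a hashtag's barcodes, with a median of 5.65% and 25 to 85 members each. MALAT1 was at 91925 to 167476 CPM in members (median 125357) and 15853 to 24065 in reference barcodes (median 20635). The ranges did not overlap, and the ratio ran from 4.34 (Hashtag1) to 9.41 (Hashtag8). The ribosomal protein sum was 64159 to 90961 CPM in members and 210583 to 277907 in reference barcodes, again with no overlap. TTN was at 9876 to 21747 in members and 1932 to 5731 in reference barcodes, with ratios of 2.44 to 5.36. The sarcomere sum behaved otherwise. Its ratio ran from 0.72 (Hashtag9) to 1.495 (Hashtag1) with a median of 0.92 and was above 1 in Hashtag1 alone, where 35.1% of members and 27.6% of reference barcodes were cardiomyocyte-like. By the profile match the stromal-like share was larger in members in 10 of 13 hashtags, with 0% to 35.1% of members and 1.60% to 14.9% of reference barcodes.

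**Figure D5:**
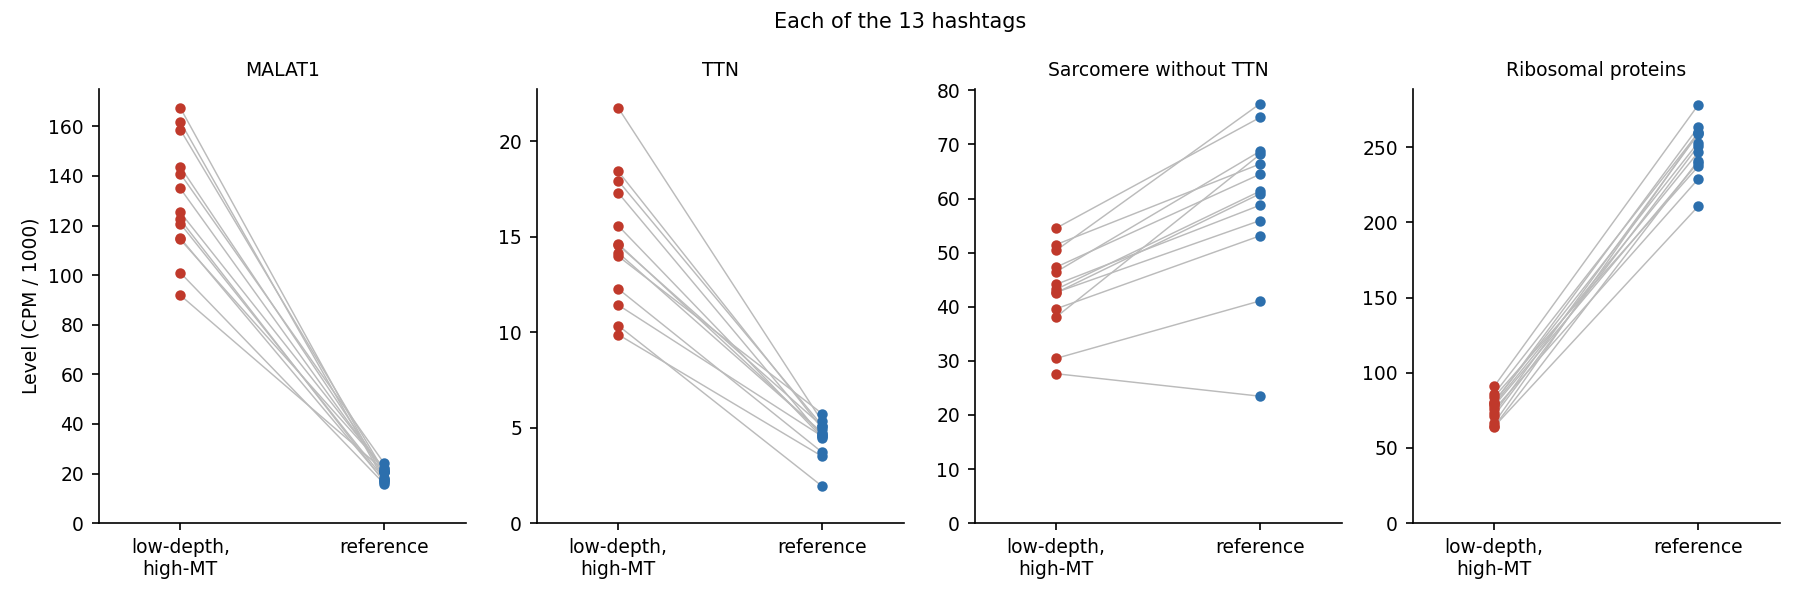
Levels in CPM divided by 1000, for each of the 13 hashtags (points, joined by lines) in low-depth, high-MT barcodes (left, red) and reference barcodes (right, blue). MALAT1, TTN and ribosomal proteins do not overlap between the groups, while the sarcomere genes without TTN do, with ratios of 0.56 to 1.18.

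Hashtag UMIs come from antibodies on the cell surface and were not used by the rule. Members had a median of 166 hashtag UMIs per barcode (quartiles 94 and 312), against 232 (127 and 446) in reference barcodes, 311 in deep, high-MT barcodes and 107 in shallow, low-MT barcodes. The gap was far smaller than that in gene UMIs, which the rule set. Members therefore held a median of 83.6 hashtag UMIs per 1000 gene UMIs, against 16.4 in reference barcodes. This median was 28.6 in deep, high-MT barcodes and 47.2 in shallow, low-MT barcodes. In single hashtags the ratio of medians ran from 0.81 to 1.13, with a median of 0.91. Only 2 members had fewer than 20 hashtag UMIs, against 1 reference barcode and 12 shallow, low-MT barcodes.

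At equal depth members held more kinds of transcript. Thinned to 1000 UMIs outside the MT- genes, the 1190 members deep enough had a median of 679.5 genes (quartiles 644 and 721), against 622 (595 and 648) in reference barcodes, with 170 members left out. Deep, high-MT barcodes had 659 and shallow, low-MT ones 621.5. With MALAT1 left out as well, the median was 774 in the 1028 members deep enough, and the median of reference barcodes was 630.0. In that setting 332 members were left out, deep, high-MT barcodes had 674 and shallow, low-MT ones 653.

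Outside the lists, the protein-coding gene with the largest ratio at 50 CPM or more was EMC10 (chr19:50476400-50490870, plus strand), a subunit gene of a membrane insertion complex, with 11119 CPM in members and 969 in reference barcodes (11.5, 11.3 to 11.6). FSIP2, a gene of the sperm tail with a transcript of 20788 bases, had 300 CPM in members and 31.1 CPM in reference barcodes (9.64, 8.92 to 10.4), and the thioesterase gene ACOT11 had 97.4 CPM in members, against 10.2 CPM in reference barcodes (9.51, 8.28 to 10.9). ZNF117 had a ratio of 9.68. ANKRD36C (11.2), NPIPB5 (10.4) and GOLGA8B (9.80) belong to families of near-identical copies, and MTRNR2L12 (10.9) is a nuclear copy of the mitochondrial MT-RNR2 sequence, so reads of another locus may enter their counts. The lowest ratios were those of the histone gene HIST1H4C, with 24.7 CPM in members and 238 CPM in reference barcodes (0.10, 0.079 to 0.134), and BTF3, with 251 CPM in members, against 1172 CPM in reference barcodes (0.21, 0.20 to 0.23). They were followed by TMSB15A, VKORC1, DBI, UBE2T, EEF1B2 and SMDT1 at 0.23 to 0.26, all with annotated transcripts of 685 to 1567 bases. Among noncoding RNAs of at least 50 CPM, ANKRD10-IT1 (15.9) and FTX (8.71) were among the 8 with the largest ratios, and SNHG29 had the smallest (0.24).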

How the data were processed

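The deposited matrix holds raw UMI counts, 311110726 of them over 36601 genes and 9911316 over 13 hashtags, in 24038 barcodes. It was made with Cell Ranger 4.0.0, per the file headers, and on the genome build hg38, per the submitters' processing notes. For alignment, strand use, annotation release and cell calling, settings were not given in the sources used here.

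Counts were summed over the barcodes of a group and divided by the group's UMIs outside the MT- genes, 2393105 in members and 247992374 in reference barcodes. Genes with at least 10 CPM and 10 counts on the higher side were measured, and called from a ratio of 1.5. Exact 95% intervals are conditional binomial for ratios and Clopper-Pearson for shares. With 1 pool and 1 library there is no test. The calculation was tested on simulated data.

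Reference barcodes were clustered in scanpy 1.11.5 and leidenalg 0.10.2 (2000 variable genes, 30 components, 15 neighbours, resolution 0.6), which gave 12 clusters, named from 10 marker lists of 73 genes. Barcodes were matched to cluster profiles by multinomial likelihood. Scrublet marked 10.7% of the 21623 barcodes it scored, 1.25% of members and 11.9% of reference barcodes, and none were removed except in 1 alternative. Transcript lengths and positions are from GENCODE 29 (34616 of the gene identifiers matched). TMM factors are from edgeR 4.0.16.

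Named genes are the MT- genes, MALAT1, NEAT1 and the sarcomere list, up to 4 genes per direction of each other list with the largest ratio past 1.5, and outside the lists the 8 protein-coding genes per direction with the largest ratio at 50 CPM or more. A few further genes (LDHB, HK2, SOD1, HSPA1B, NPPA by cluster, and the noncoding RNAs outside the lists) are given as examples. GPX1 and FASTKD4 are in the lists but not analysed here. A few genes that the naming rule takes are not reported here. The members and the lists were chosen with earlier results of these data known. Alternatives were other scalings, minimum levels, rule limits and subsets of barcodes.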

Additional observations from a re-analysis of the deposited data

How the results depend on the processing

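No paired analysis was possible because the labels give 1 pool with no replicates. Differences within single hashtags, which no label ties to a sample, are given as values above. The number of genes at least 1.5-fold higher in members was 5749 as reported, 1337 with TMM, 1439 with median-of-ratios scaling, 2613 centred on the median gene, 2158 with a minimum level of 50 and 3607 with the minimum set on reference barcodes alone. The number at least 1.5-fold lower was 2001 as reported, 4622 with TMM, 4525 with median-of-ratios scaling, 3633 centred on the median gene, 5391 with no minimum level and 1296 with a minimum of 50. The minimum on reference barcodes alone, the centring, the shallow comparison, the stromal-like alternatives and the thinning without MALAT1 were chosen after seeing the data.

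The summed nuclear RNA ratio was 7.47 as reported. It was 6.42 with all gene UMIs as the total, 3.46 with TMM, 3.56 with median-of-ratios scaling, 4.55 centred on the median gene, 7.63 without marked doublets, 6.73 in barcodes given to 1 hashtag, 8.30 in cardiomyocyte-like barcodes, 7.58 with members of 1000 to 3000 UMIs, 7.62 with an MT share of 10% to 25%, 6.58 against reference barcodes of 6000 to 12000 UMIs, 2.09 against shallow, low-MT barcodes and 6.75 with hashtags weighted equally. The summed sarcomere ratio was 0.90 as reported. In the same order it was 0.77, 0.42, 0.43 and 0.55 under the other scalings, 0.89 in cardiomyocyte-like barcodes, 0.88 with 1000 to 3000 UMIs, 0.89 with an MT share of 10% to 25%, 0.85 against reference barcodes of 6000 to 12000 UMIs, 0.85 against shallow, low-MT barcodes and 0.92 with hashtags weighted equally. None of these settings turned either sum to the other side of 1.

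The cardiomyocyte-like share of members was 98.97% with marker lists in place of the profile match. The stromal-like share of members was 11.03% as reported, 11.8% at resolution 1.0 and 0.662% with marker lists, the last below the 2.72% of reference barcodes. The marker lists favour the cardiomyocyte-like class, so they cannot decide which side had the larger stromal-like share. The ratio of median hashtag UMIs, 0.72 as reported, was 0.88 against reference barcodes of 6000 to 12000 UMIs. Thinned members had 673 genes when cardiomyocyte-like and 774 with MALAT1 left out. The causes were not tested. Gene counts with hashtags weighted equally were not run, since 25 to 85 members per hashtag leave too few UMIs per gene. At 10 CPM a gene has few counts in members, so single ratios near the minimum level are uncertain.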

Other observations

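Barcodes beyond the members' upper MT limit had values that belong to no comparison. At 1000 to 4000 UMIs, the 614 barcodes with an MT share of 25% to 40% had a MALAT1 level of 139374 CPM (per 1000000 UMIs outside the MT- genes), close to that of members. The 339 barcodes of 40% to 60% had 115529 and the 178 above 60% had 81007. TTN was at 17156, 16115 and 17252 CPM in these 3 bins, and the ribosomal protein sum at 63933, 66469 and 95669.8 CPM. Median detected genes were 940, 817 and 590.5, at median UMIs of 2124, 2351 and 2486.

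The 249 barcodes of 1000 to 4000 UMIs with an MT share under 2% had a ribosomal protein sum of 232406 CPM and TTN at 3414 CPM, while the 14995 reference barcodes had 251800 and 4247. Their MALAT1 level, 35619 CPM, lay above the 17749.6 of reference barcodes.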
